A study of Mus musculus with 16 samples.

Results

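The genes described here are 29 pumps, channels and carriers that move ions, lactate and water across the retinal pigment epithelium (RPE). Every non-control probe whose RefSeq accession belonged to a listed gene was taken, which gave 41 probes of 29 genes among the 55681 probes and 20660 named genes of the array. A filter on dim probes, which asked for a clear signal on 4 or more of the 16 arrays, left 39 of the 41, so that 28 of the 29 genes were tested. The exception was Best1, bestrophin, a calcium-activated chloride channel of the basolateral RPE membrane: its probe stood well above background on 1 of the 16 arrays, the wild-type 1-year replicate 2, where it read -4.37.

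The RPE is a single layer of pigmented cells between the photoreceptors and the choroidal blood supply. It carries fluid, chloride, potassium and lactate out of the space around the photoreceptors and buffers the pH and potassium there as light levels change. The sodium pump sits on the apical side of this epithelium, facing the photoreceptors, rather than on the basolateral side, and the gradients it sets drive the other carriers. Photoreceptors and Müller glia release lactate, which leaves across the RPE through monocarboxylate carriers that need basigin to reach the membrane.

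The study compared nm3342 mutant mice at 1 month (P30) with wild-type mice at 1 month, and nm3342 mutant mice at 1 year (P365) with wild-type mice at 1 year. All groups had the C57Bl/6J background and a label of male sex, and each had 4 arrays. The labels do not name the mutated gene, so that no targeted gene could serve as a check, and they do not say whether the allele acts in the RPE, in the retina or elsewhere. RNA came from retina and RPE together, so a lower or higher value of a gene that several of these cells express belongs to no single cell type, and fewer cells of a type cannot be told apart from less RNA per cell.

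Levels are log2 fluorescence intensities minus the 75th percentile of their array, so that 0 is that percentile, and a difference of 1 is a doubling. The level of one probe says nothing about the level of another. The 75th percentile lay between 603 and 994 intensity units, 82.1% to 89.6% of spots were well above background, and at most 2 spots of an array were saturated. All 6 RPE markers (Rpe65, Lrat, Rdh5, Rgr, Ttr, Rlbp1) and all 8 melanin genes listed were well above background on all 16 arrays. On 3 of the 16 arrays, the mutant 1-month replicates 2 and 3 and the mutant 1-year replicate 1, the X-inactivation transcript Xist read -0.38 to -0.03, against -8.61 to -5.68 on the other 13, and the Y-linked Ddx3y read -8.47 to -8.12, against 0.69 to 1.19. These 3 arrays therefore go against the label of male sex. Values without them are given for members called between the genotypes, for Slc16a3 with age in mutants and for passing correlations. Most other genes and the markers have no such value here. Genes were called at an adjusted p under 0.05 in limma's moderated test over 19022 genes (Benjamini-Hochberg), from 1 fit of all 4 groups, and changes are on the log2 scale, ± SE of that fit.

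In mutants at 1 month, 3 transport genes with a clear signal on all 16 arrays rose and none fell. They were the RPE lactate carrier Slc16a8, its membrane partner Bsg and the potassium chloride cotransporter Slc12a7. The other called gene, the dim sodium pump beta subunit Atp1b4, passed the filter on dim probes only through the mutant 1-month arrays, where it was high, so its test is conditioned on the outcome and is no support. With Atp1b4, 4 of the 28 genes tested were called, or 14.3%, where 2.72% of all genes tested were called, 2.03% higher and 0.694% lower. With the filter at all 16 arrays, 3 of 27 were called, where 565 of the 17556 genes tested were called. The median change of the 28 was 0.11 on the log2 scale, against 0.02 over all genes. It was 0.06 without replicate 1 of either genotype at 1 month, 0.20 without the mutant 1-month replicate 4 and 0.24 without the 3 arrays against the sex label. Of the 28, 21 had a positive change and 7 a negative one, and 11 had an unadjusted p under 0.05. The share of all genes under that unadjusted cut was not counted, so the 11 have no background to be read against. The arrays of the genotypes did not overlap for 7 members that were higher in mutants, Atp1b4 among them, and 1 that was lower, where 5.85% and 2.68% of all genes tested did not overlap in these directions. Without the 3 arrays against the sex label, 0 of the 28 were called by limma.

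Slc16a8 encodes MCT3, the lactate carrier of the basolateral RPE membrane. It read 1.91, 1.48, 1.84 and 1.56 in mutants at 1 month, against 0.71, 0.98, 0.96 and 0.94 in wild types. Every mutant array lay above every wild-type array. The change was 0.80 ± 0.16 (SE), a 1.74-fold level (limma, adjusted p = 0.0154). Leaving out the 3 arrays against the sex label gave 0.84 (limma, adjusted p = 0.0991), and that pattern as a covariate gave 0.77 (limma, adjusted p = 0.0609). The call was also lost without the mutant 1-month replicate 1 or without the wild-type 1-month replicate 1, the lowest array.

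Bsg, the glycoprotein that takes these carriers to the membrane, is also abundant in photoreceptors and Müller glia. It read 3.89, 3.75, 3.90 and 3.56 in mutants at 1 month, against 3.15, 3.42, 3.36 and 3.46 in wild types. The genotypes did not overlap, although the lowest mutant array was close to the highest wild-type array. The change was 0.43 ± 0.11 (SE), 1.34-fold (limma, adjusted p = 0.0489). Without the 3 arrays it was 0.38 (limma, adjusted p = 0.353), and the call held in 2 of the 16 fits that each left out 1 array.

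The 2 further lactate carriers were not called. Slc16a3, or MCT4, an exporter of lactate from glycolytic cells, had a change of 0.31 ± 0.14 (limma, adjusted p = 0.293), and its further probe one of 0.30. Slc16a1, or MCT1, which serves the apical RPE membrane and many retinal cells, had a change of -0.03 ± 0.11 (limma, adjusted p = 0.943).

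Slc12a7 encodes KCC4, which carries potassium and chloride out of cells together. It read -0.62, -0.55, -0.66 and -0.63 in mutants at 1 month, against -1.03, -0.83, -0.94 and -0.89 in wild types. All mutant arrays were above all wild-type arrays, and the spread within either group was small. The change was 0.31 ± 0.07 (SE), 1.24-fold (limma, adjusted p = 0.0402), and 0.30 without the 3 arrays (limma, adjusted p = 0.226). The call held in 5 of the 16 fits without 1 array. Among the related cotransporters, Slc12a4 (KCC1) had 0.36 ± 0.10 (limma, adjusted p = 0.0783) with no overlap between the genotypes. The sodium-dependent Slc12a2 (NKCC1) of the apical membrane and the neuronal Slc12a5 (KCC2) had changes of -0.03 and 0.02.

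Atp1b4 is a relative of the sodium pump beta subunits that in mammals is known from the inner nuclear membrane of muscle. It was well above background on 4 of 4 mutant arrays at 1 month, on 1 mutant array at 1 year and on 0 wild-type arrays. It read -5.75, -5.42, -5.14 and -5.54 in mutants at 1 month, against -7.11, -6.66, -8.23 and -8.69 in wild types, where it was not well above background. Set against the lowest signal that counted as well above background, the bound on its rise was 1.85-fold, conditioned on the filter named above. The fit of the measured values gave a difference of 2.21 (limma, adjusted p = 0.0113), which is conditioned on the filter named above, and 2.03 without the 3 arrays (limma, adjusted p = 0.157). With a normexp background correction the difference was 0.33 (limma, adjusted p = 0.178). This is below the bound, so the bound holds only for the main background subtraction. The gene lies on the X chromosome. The mean level of the 7 muscle markers was 1.37 to 2.40 in mutants at 1 month and 0.36 to 1.48 in wild types, and 1 of them, Acta1, rose. Their part in the Atp1b4 result was not tested.

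The subunits that pair with the pump itself were not called at 1 month. Atp1b1 had a change of 0.08 ± 0.14, Atp1b2, the subunit of photoreceptors and glia, 0.06 ± 0.08, and Atp1b3 -0.18 ± 0.17, with adjusted p-values of 0.669 to 0.846 (limma).

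**Figure D1:**
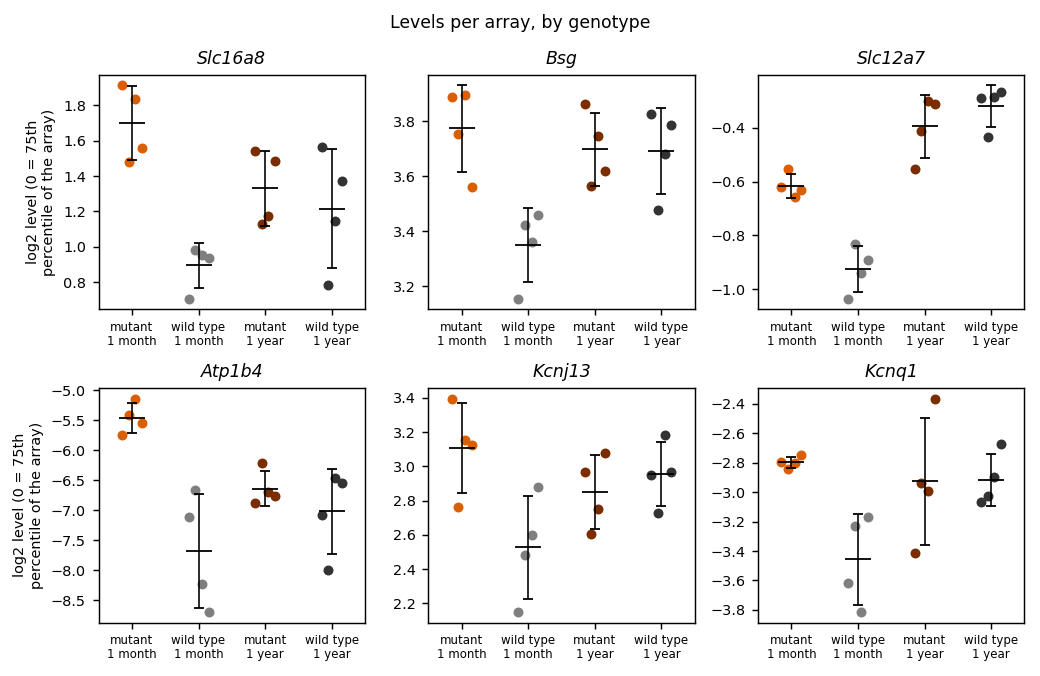
Level of 6 transport genes on each array (y axis, log2 intensity with 0 at the 75th percentile of the array; the scale differs by panel), by genotype and age (x axis), with group means and SD bars (n = 4 arrays). At 1 month the mutant points of Slc16a8, Bsg, Slc12a7, Atp1b4 and Kcnq1 lie above all wild-type points, and at 1 year the genotypes overlap in all 6 panels. Atp1b4 was not well above background on the wild-type arrays and passed the filter on dim probes only through the mutant 1-month arrays.

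The potassium channels were not called at 1 month. Kcnj13, the inward rectifier Kir7.1 of the apical RPE membrane, read 3.40, 2.76, 3.15 and 3.13 in mutants at 1 month, against 2.15, 2.49, 2.60 and 2.88 in wild types. The genotypes overlapped through 1 array on each side. The change was 0.58 ± 0.17 (limma, adjusted p = 0.0879), and its further probe had 0.55 (adjusted p = 0.0543 over all probes). With the slide as a block the adjusted p was 0.0376, and with the mean of its probes 0.0481. Kcnq1, a voltage-gated channel of the basolateral membrane, had 0.66 ± 0.19 (limma, adjusted p = 0.0884) with no overlap, and Kcnq5, of the M-type family, had 0.30 ± 0.17.

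Water, bicarbonate and chloride genes were not called at 1 month. Aqp1, the water channel, had a change of 0.27 ± 0.10 (limma, adjusted p = 0.178) with no overlap between the genotypes. Of the carbonic anhydrases, which interconvert carbon dioxide and bicarbonate, Car12 had 0.42 ± 0.18, cytosolic Car2 0.05 ± 0.15 and the membrane-anchored Car4 -0.32 ± 0.15. The chloride-bicarbonate exchangers Slc4a2 and Slc4a3 had 0.16 and -0.16, and the sodium-bicarbonate cotransporters Slc4a4 and Slc4a7 had 0.09 and 0.04. Among the chloride channels the changes ran from -0.11 for Clcn3, an endosomal chloride-proton exchanger, to 0.21 for Clic4, an intracellular channel protein. Cftr, the anion channel opened by cyclic AMP, had 0.01, Clcn2, a channel needed for photoreceptor survival in mice, had -0.04, and Clic6 had 0.13.

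Some markers of the epithelium itself also differed at 1 month. In mutants at 1 month 3 of the 6 RPE markers rose (Ttr, Rdh5 and Rlbp1), and Rpe65 had a change of -0.18 ± 0.17 (limma, adjusted p = 0.684). Lrat and Rgr had changes of 0.02 and 0.23 (limma, adjusted p = 0.979 and 0.6). The mean level of the 6 was 3.86 to 4.31 in mutants and 3.36 to 3.97 in wild types. Of the 8 melanin genes 5 rose, with mean levels of 2.33 to 2.94 in mutants and 1.53 to 2.25 in wild types. Erythrocyte markers had mean levels of 0.65 to 4.95 in mutants and -1.58 to 0.30 in wild types, with 0 of 4 tested called (limma; 3 had groups that did not overlap). Lens markers ran from 0.89 to 5.96 in mutants and from 4.35 to 4.98 in wild types. Of the 5 microglia markers 2 rose, Aif1 by 1.03 and Csf1r by 0.73 (limma, adjusted p = 0.000685 and 0.000581). Their mean level was -0.34 to -0.18 in mutants and -0.97 to -0.83 in wild types, without overlap. Kdr, 1 of 6 endothelial markers, rose by 0.68, and Abca8a, 1 of 4 Müller glia markers, rose by 0.57 (limma, adjusted p = 0.00138 and 0.0384). None of the 6 rod markers was called. The part of these markers in the transport results was not tested.

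At 1 year, 0 of the 28 genes were called between mutant and wild type by limma, where 0.857% of all genes tested were called. Of the 28, 4 had an unadjusted p under 0.05, with no count over all genes at that cut. The median change was -0.03 against -0.01 over all genes (0.04 without the mutant 1-year replicate 2), and 12 changes were positive. The genotypes did not overlap for 5 members lower in mutants and for 0 higher ones, where 3.43% and 4.39% of all genes tested did not overlap in these directions. These 5 were Slc16a3, Aqp1, Slc4a7, Kcnq5 and Clic4. Kcnq5 was dim, and the further Clic4 probe went against the brighter one with age in wild types. Slc16a3 read 2.07, 2.23, 2.34 and 2.19 in mutants at 1 year, against 2.79, 2.64, 2.78 and 2.41 in wild types, a change of -0.45 ± 0.14 (limma, adjusted p = 0.169). Aqp1 read 4.22, 4.19, 4.24 and 4.24 in mutants, against 4.25, 4.56, 4.58 and 4.72 in wild types, a change of -0.30 ± 0.10 (limma, adjusted p = 0.182). For both genes the lowest wild-type array was just above the highest mutant array. Of the genes called at 1 month, the changes were 0.11 for Slc16a8, 0.00 for Bsg and -0.07 for Slc12a7, and Atp1b4 was well above background on 1 of the 8 arrays, so that no change is given for it.

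**Figure D2:**
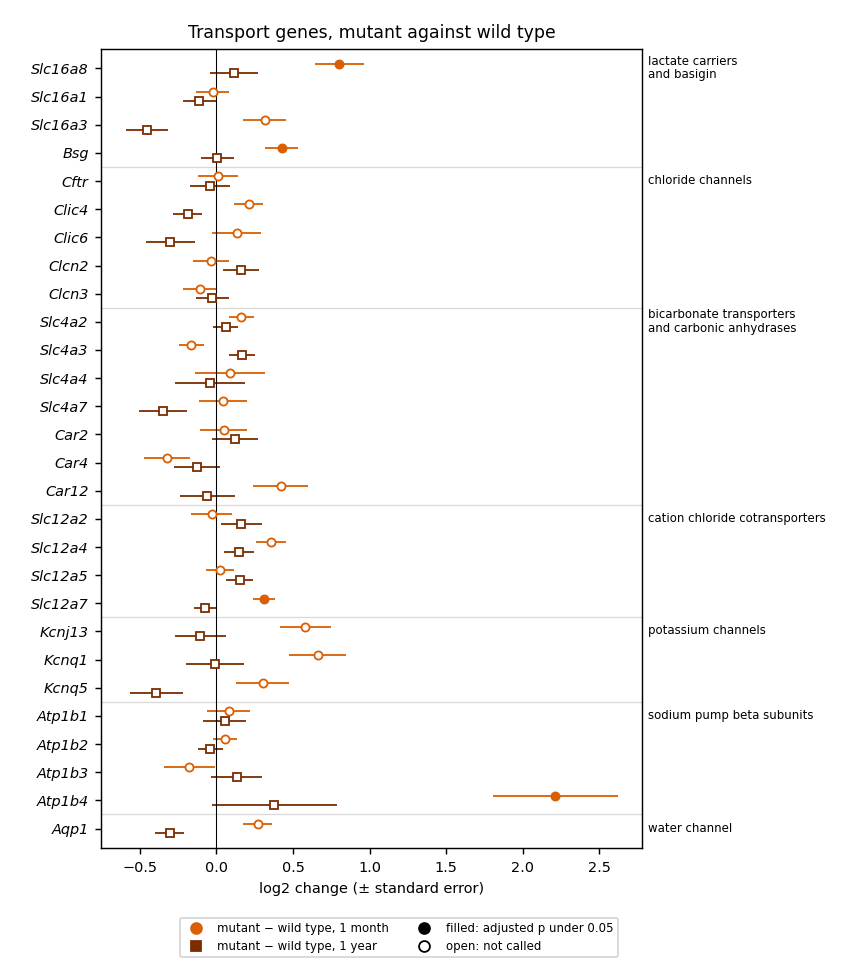
Change of each of the 28 tested genes in mutants against wild types on the log2 scale (x axis, bars are standard errors of the limma fit, 4 arrays a group) at 1 month (circles) and 1 year (squares), with genes grouped by role down the page. Filled symbols have an adjusted p under 0.05; all 4 are at 1 month, and the Atp1b4 values rest on arrays where it was not well above background.

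The genotype effect at 1 year minus that at 1 month, the test of whether age changed the effect, was called for 0 of the 28 by limma, where 0.421% of all genes tested were called. Of the 28, 11 had an unadjusted p under 0.05, again with no count over all genes at that cut. The median difference was -0.17 against -0.02 over all genes. Aqp1 had -0.57 ± 0.13 (limma, adjusted p = 0.0835), Slc16a3 -0.77 ± 0.19 (limma, adjusted p = 0.11) and Slc16a8 -0.69 ± 0.22 (limma, adjusted p = 0.231). So the loss of a call between 1 month and 1 year is not shown to be a change of the effect. Aqp1 passed without the wild-type 1-year replicate 1 (-0.67, adjusted p = 0.0279), and Slc16a3 without the mutant 1-month replicate 4 (-0.89, adjusted p = 0.029). All 6 RPE markers and all 8 melanin genes had a negative difference, with medians of -0.55 and -0.90. Of these limma called 0 RPE markers and 2 melanin genes, Slc45a2 and Tyrp1 (adjusted p = 0.0198 and 0.0305). The rod marker Gnat1 had -0.55 (limma, adjusted p = 0.0172), and all 7 lens markers had a positive difference (median 2.99). The part of these markers in the differences of the members was not tested.

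With age, more transport genes passed the threshold in wild types than in mutants, and whether these counts differ was not tested. At 1 year against 1 month, 6 of the 28 were called in wild types, 5 higher and 1 lower, or 21.4%, where 12.4% of all genes tested were called, 7.31% higher and 5.05% lower. The median change was 0.17, against -0.03 over all genes, and it was 0.07 without the wild-type 1-month replicate 1 and 0.05 with normexp. The ages did not overlap for 7 higher and 3 lower members, where 9.17% and 9.7% of all genes tested did not overlap. Each genotype contrast shares its arrays with an age contrast, so that the low wild-type values at 1 month enter both.

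Aqp1 moves water across the RPE and is also found in other cells of the eye. It read 4.25, 4.56, 4.58 and 4.72 in wild types at 1 year, against 3.64, 3.85, 3.94 and 3.89 at 1 month. All 1-year arrays were above all 1-month arrays, and the change was 0.70 ± 0.10, 1.62-fold (limma, adjusted p = 0.000214). In mutants the change was 0.12 ± 0.10 (limma, adjusted p = 0.495), and the difference between these age changes is the Aqp1 value given above, which missed the threshold.

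Slc12a7 read -0.29, -0.44, -0.29 and -0.27 in wild types at 1 year, against -1.03, -0.83, -0.94 and -0.89 at 1 month. The ages were far apart compared with the spread, with a change of 0.60 ± 0.07, 1.52-fold (limma, adjusted p = 8.34e-05). In mutants it was 0.22 ± 0.07 (limma, adjusted p = 0.0952). Bsg read 3.83, 3.48, 3.68 and 3.79 in wild types at 1 year, against 3.15, 3.42, 3.36 and 3.46 at 1 month, and the ages all but touched. The change was 0.34 ± 0.11, 1.27-fold (limma, adjusted p = 0.0481), and the call held in 5 of the 16 fits without 1 array.

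Clic6 and Clic4 belong to a family of chloride intracellular channel proteins. Clic6 read 3.19, 2.74, 3.07 and 3.13 in wild types at 1 year, against 1.99, 2.34, 2.50 and 2.62 at 1 month, without overlap. Its change was 0.67 ± 0.16, 1.59-fold (limma, adjusted p = 0.0123). Clic4 read 1.96, 1.98, 2.22 and 1.98 in wild types at 1 year, against 1.36, 1.56, 1.41 and 1.75 at 1 month, also without overlap, for a change of 0.52 ± 0.09, 1.43-fold (limma, adjusted p = 0.00244). The further Clic4 probe went the opposite way, with -0.27 (adjusted p = 0.372 over all probes), and the mean of both probes gave 0.12 (limma, adjusted p = 0.382), so the direction of Clic4 depends on the probe.

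Slc4a3, the anion exchanger AE3, exchanges chloride for bicarbonate and is known from neurons and glia of the retina. It read 2.15, 2.29, 2.20 and 2.38 in wild types at 1 year, against 2.90, 2.67, 2.66 and 2.86 at 1 month. It fell in every 1-year array below every 1-month array, with a change of -0.52 ± 0.08, a 0.699-fold level (limma, adjusted p = 0.000802). The further probe had -0.41 (adjusted p = 0.0515 over all probes).

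In mutants at 1 year against 1 month, 1 of the 28 was called, a decrease, or 3.57%, where 6.7% of all genes tested were called, with 2.93% called lower, so the share of members was not above that of all genes. The gene was Slc16a3, which lies on chromosome 11, as do Car4 and Atp1b2. Slc16a3 read 2.07, 2.23, 2.34 and 2.19 in mutants at 1 year, against 3.46, 3.24, 3.35 and 2.84 at 1 month, without overlap. The change was -1.02 ± 0.14, a 0.493-fold level (limma, adjusted p = 0.000367), and the further probe gave -1.03. Leaving out the 3 arrays against the sex label gave -0.90 (limma, adjusted p = 0.0456). In wild types the change was -0.25 ± 0.14 (limma, adjusted p = 0.262). In the same mutants, 3 of the 6 rod markers fell at 1 year against 1 month (Gnat1, Nrl and Pde6b), with mean levels of 6.09 to 6.31 at 1 year and 6.33 to 6.65 at 1 month. Of the other markers, 2 of 8 melanin genes and 2 of 7 lens genes fell, and the microglial Aif1 and the endothelial Plvap rose by 0.82 and 0.54 (limma, adjusted p = 0.00162 and 0.0238). Their part in the Slc16a3 result was not tested. The further probe of Slc4a7, the sodium-bicarbonate cotransporter NBCn1, fell by 0.48 (adjusted p = 0.0104 over all probes), and its brighter probe had -0.49 (limma, adjusted p = 0.0776).

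**Figure D3:**
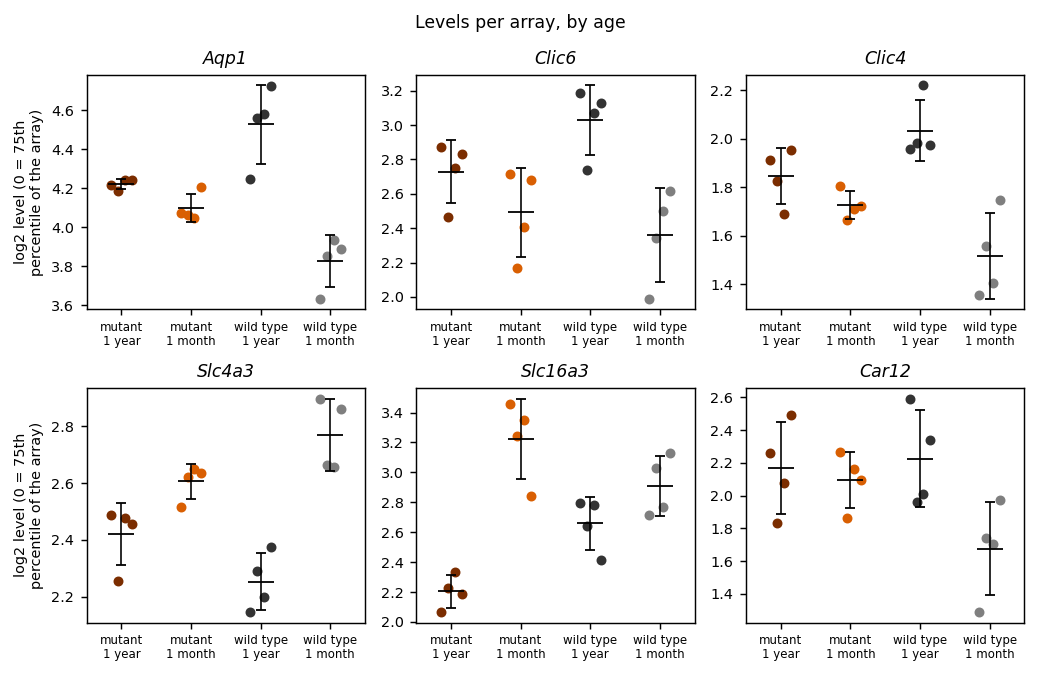
Level of 6 transport genes on each array (y axis, log2 intensity with 0 at the 75th percentile of the array; the scale differs by panel), with 1 year left of 1 month for each genotype (x axis), group means and SD bars (n = 4 arrays). In wild types the ages are apart for Aqp1, Clic6, Clic4 and Slc4a3 and overlap for Slc16a3 and Car12; in mutants they are apart for Slc16a3 and Slc4a3.

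The remaining members did not pass the test with age in either genotype. In wild types Car12 had 0.55 ± 0.18 (limma, adjusted p = 0.0585), Slc12a4 0.32 ± 0.10 (limma, adjusted p = 0.0513) and Kcnq1 0.54 ± 0.19 (limma, adjusted p = 0.0782). Kcnj13 had 0.43 ± 0.17 (limma, adjusted p = 0.114), and its further probe rose by 0.52 (adjusted p = 0.0264 over all probes). The pump subunit Atp1b1 had -0.36 ± 0.14 in wild types and -0.39 ± 0.14 in mutants, the same direction in both (limma, adjusted p = 0.114 and 0.125). In wild types at 1 year 2 of the 6 RPE markers and 4 of the 8 melanin genes rose against 1 month, and RPE marker means were 3.90 to 4.31 at 1 year and 3.36 to 3.97 at 1 month. In wild types 6 of the 7 lens markers fell, with means of -4.37 to -0.65 at 1 year and 4.35 to 4.98 at 1 month, and Aif1 and Csf1r of the 5 microglia markers rose by 1.44 and 0.56 (limma, adjusted p = 5.63e-06 and 0.001). In wild types the endothelial Plvap rose by 0.52 and the muscle marker Myh4 by 1.47 (limma, adjusted p = 0.018 and 0.0484). The part of these markers in the age results was not tested.

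**Figure D4:**
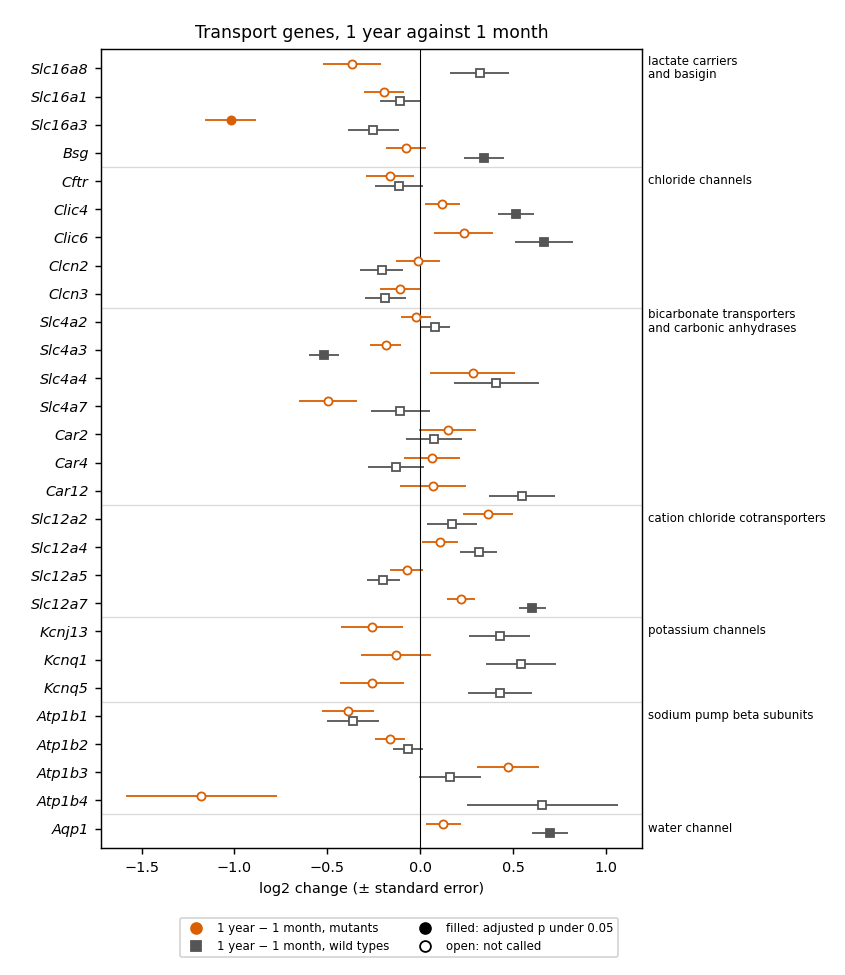
Change of each of the 28 tested genes at 1 year against 1 month on the log2 scale (x axis, bars are standard errors of the limma fit, 4 arrays a group) in mutants (circles) and wild types (squares), with genes grouped by role down the page. Filled symbols have an adjusted p under 0.05, which 6 genes reach in wild types and Slc16a3 in mutants.

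Within the groups, some members rose and fell with the RPE markers from array to array, and the markers themselves differed between the slides. For each of the 28 genes, the level minus its group mean was set against the mean of the 6 RPE markers minus its group mean, over 16 arrays. The p-values came from 100000 permutations within groups and were adjusted over the 28 relations, and this comparison was chosen after the data were seen. Arrays of different slides were exchanged in the permutations. The relation passed for 5 genes, and the median Pearson r was 0.19. All values share the scaling of their array.

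Kcnj13 followed the RPE markers most closely, with r = 0.90 and rho = 0.87 (permutation test, adjusted p = 0.00271 for r and 0.00737 for rho). Car12 had r = 0.87 and rho = 0.93 (permutation test, adjusted p = 0.00271 and 0.00252), and Slc16a8 had r = 0.85 and rho = 0.83 (permutation test, adjusted p = 0.00271 and 0.00616). Clic6 had r = 0.83 and rho = 0.79 and Bsg r = 0.79 and rho = 0.74 (permutation test, adjusted p = 0.0131 and 0.0162 for r). Without the 2 arrays farthest from the median RPE level, r was 0.85 for Kcnj13, 0.81 for Car12, 0.83 for Slc16a8, 0.72 for Clic6 and 0.66 for Bsg. Without the 3 arrays against the sex label, r over the other 13 was 0.92, 0.87, 0.83, 0.89 and 0.81 for these genes in the same order.

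The arrays lay on 2 slides, with 2 arrays of each group on each. The RPE marker mean minus its group mean was 0.08 to 0.26 on slide 2 and -0.36 to 0.05 on slide 1. Group means were taken over both slides, so r and its p-values include any offset between the slides. Such an offset was not tested apart from differences between arrays of a slide. Over the 8 arrays of slide 1 and of slide 2, r was 0.84 and 0.92 for Kcnj13, 0.72 and 0.66 for Clic6, and 0.68 and 0.49 for Car12. For Slc16a8 it was 0.74 on slide 1 and -0.07 on slide 2, and for Bsg 0.75 and 0.04. These values of r also used group means over both slides, so they are not free of slide offsets. Whether the relations differ between the slides was not tested. Aqp1, Slc12a7 and Atp1b4, which were called in the group comparisons, had r = 0.18, 0.26 and -0.21 with the RPE markers. The lowest value was -0.62, for Slc16a1 (permutation test, adjusted p = 0.116).

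**Figure D5:**
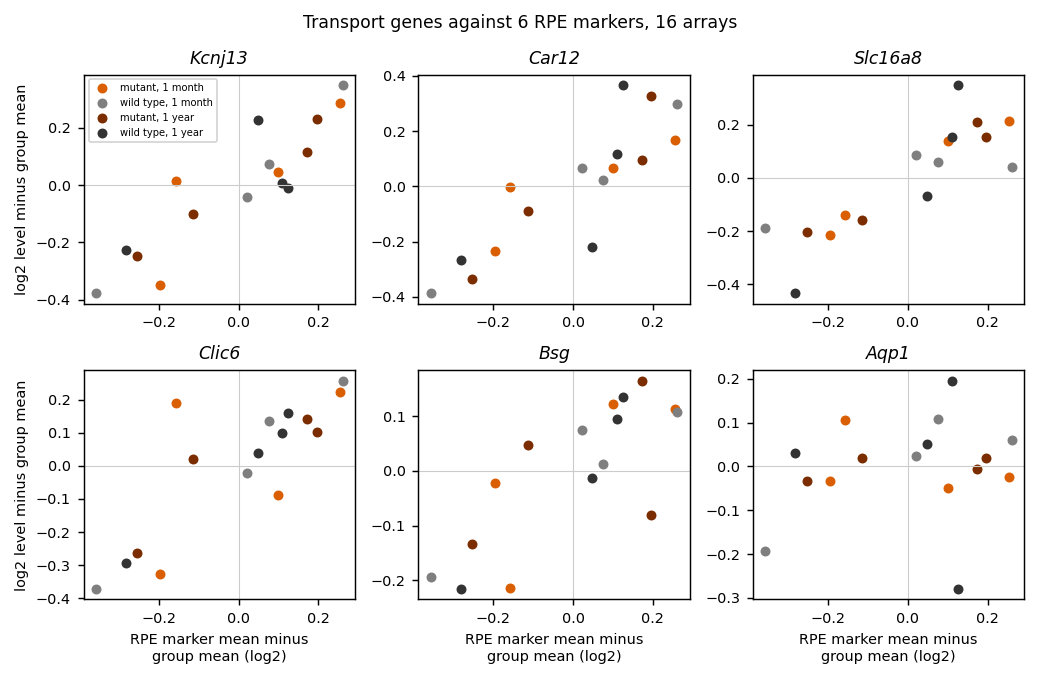
Level of 6 transport genes minus the group mean (y axis, log2) against the mean of 6 RPE markers minus the group mean (x axis, log2), 1 point for each of the 16 arrays, coloured by group. Kcnj13, Car12, Slc16a8, Clic6 and Bsg run up to the right (r = 0.79 to 0.90), and Aqp1 does not (r = 0.18).

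The promoter windows of the 3 genes closest to the RPE markers are shown because their levels moved together; those of Clic6 and Bsg are not shown. Each window runs from 250 bases before to 50 bases after the transcript start (RefSeq, build GRCm38.p6), 5′ to 3′ on the strand of the gene, at chr1:87394680-87394979 (minus strand) for Kcnj13, chr9:66713436-66713735 (plus strand) for Car12 and chr15:79254699-79254998 (minus strand) for Slc16a8. Capitals mark a match to any of 3 searched motifs, on either strand.
Kcnj13: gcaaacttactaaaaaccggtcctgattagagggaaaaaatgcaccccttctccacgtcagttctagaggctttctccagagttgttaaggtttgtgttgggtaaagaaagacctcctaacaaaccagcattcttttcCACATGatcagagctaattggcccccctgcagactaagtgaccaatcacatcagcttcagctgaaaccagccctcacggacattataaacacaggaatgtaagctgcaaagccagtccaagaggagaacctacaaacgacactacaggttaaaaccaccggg
Car12: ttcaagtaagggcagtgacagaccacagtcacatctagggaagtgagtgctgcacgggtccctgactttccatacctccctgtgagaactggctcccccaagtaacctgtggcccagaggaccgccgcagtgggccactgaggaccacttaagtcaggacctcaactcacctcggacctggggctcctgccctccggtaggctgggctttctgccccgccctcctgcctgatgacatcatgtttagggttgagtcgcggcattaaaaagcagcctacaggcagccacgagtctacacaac
Slc16a8: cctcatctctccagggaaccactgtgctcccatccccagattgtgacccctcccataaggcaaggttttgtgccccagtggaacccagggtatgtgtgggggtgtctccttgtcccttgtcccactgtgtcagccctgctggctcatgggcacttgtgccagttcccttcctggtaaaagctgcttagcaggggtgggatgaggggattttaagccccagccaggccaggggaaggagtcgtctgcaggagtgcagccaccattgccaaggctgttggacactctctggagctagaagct

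Each motif was searched on both strands, and no pair of them can start at the same base. The E-box was CACGTG, which reads the same on the opposite strand. The M-box core was CATGTG, known from pigment cell genes bound by MITF, and Kcnj13 holds it in its opposite-strand form. The core read by OTX2 and CRX was TAATCC. Kcnj13 held 1 M-box core, and Car12 and Slc16a8 held no match. Of the 32851 windows in the table, 7.15% held the E-box, 14.2% the M-box core and 7.06% the OTX2 and CRX core. Windows were at hand for 23 of the 29 members, 30 windows in all, and 5, 2 and 1 of them held these motifs: the E-box in Atp1b3, Slc12a5, Slc12a7 and Slc16a1, the M-box core in Kcnj13 and Atp1b4, and the third in Best1. A match is a description of letters, not a site or a cause, and the search was chosen after the data were seen.

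Of 49 other transport genes of the RPE and retina that were listed, 44 were tested. Between the genotypes limma called 0 of them at 1 month and 0 at 1 year, where 2.72% and 0.857% of all genes tested were called. An unadjusted p under 0.05 was held by 4 and 6, with no count over all genes at that cut. At 1 year against 1 month limma called 4 in mutants and 4 in wild types, or 9.09% in each. Of all genes tested 6.7% and 12.4% were called in these comparisons. With age, mutants had higher Aqp4, the water channel of Müller glia, by 0.53 (limma, adjusted p = 0.00789) and higher Slc9a3r1, an apical scaffold protein, by 0.52 (limma, adjusted p = 0.0193). In mutants the calcium-activated chloride channel Ano2 fell by 0.58 and the potassium channel subunit Kcne2 fell by 0.70 (limma, adjusted p = 0.0243 and 0.0119). In wild types Slc26a4, the anion exchanger pendrin, rose by 1.35 (limma, adjusted p = 0.00254). The calcium channel Cacna1d fell by 0.46, the taurine carrier Slc6a6 fell by 0.31 and Kcne2 fell by 0.53 in wild types (limma, adjusted p = 0.0128, 0.0357 and 0.0361).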

How the data were processed

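RNA was measured on 16 single-colour Agilent arrays, 4 of each group. Per the file headers, each scanner file lists the intensity of every spot after Agilent Feature Extraction 11.0.1.1 had subtracted the background, and the median intensity of the spot and of its local background. A log2 matrix of the same arrays, deposited by the authors, served as an alternative, and its normalization is not given in the sources used here. The probe design names build mm9, per the file headers. Mouse RNA was isolated from both retinas and the RPE at P30 or P365, per the labels' protocols. The protocols give 4 samples a time point and do not say whether each comes from a separate mouse, so p-values measure the spread between these samples.

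Control spots and spots marked as outliers (93 to 136 an array) were left out. Spots of a probe were averaged, log2 was taken, and the 75th percentile of each array was subtracted. A probe counted as well above background where the marks of at least 50% of its spots said so, and it was kept if this held on at least 4 of 16 arrays, which left 49230 probes. Accessions were named through RefSeq, with 27235 of 55681 probes matched to 1 gene. The brightest kept probe stood for a gene, further probes were read in a fit over all kept probes, and 19022 genes were tested with limma 3.58.1 (R 4.3.3): 4 group means, 5 contrasts, two-sided moderated tests and Benjamini-Hochberg adjustment at 0.05. The fit was tested on simulated data. For Atp1b4 the bound took, on each dim array, the higher of the lowest signal among probes well above background and the value of the probe itself. The number of arrays limits the precision.

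All 29 members are named. A further probe is named where it was called or went against a called probe, and other transport genes where called. The members and all lists were chosen with earlier results of these data known. Alternatives were normexp background correction with an offset of 50, quantile normalization, the deposited matrix, other filters and probe rules, slide, array row, the replicate number as a block, the female pattern, only the groups compared, and leaving out each array. The plan named mean spot intensities for normexp, and the median intensities that the files hold were used in their place. Over 24 pairs of same-numbered samples of different groups, the correlation of deviations was -0.54 to 0.30, and 5 were over 0.1. Pairs with different numbers were not computed, so these values cannot settle whether the numbers pair the samples. The main fit did not pair them.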

Additional observations from a re-analysis of the deposited data

Results flagged for a closer look

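Each of the 28 tested genes was examined in each of the 4 groups, 112 groups of 4 arrays, for 1 array far from the 3 others by Dixon's test. Of these, 10 stood out, where chance gives about 1 in 20 groups. Levels are log2 intensities relative to the 75th percentile of the array.

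The wild-type 1-month replicate 1 stood apart for 3 genes. Slc16a8 was low there, at 0.71 against 0.94 to 0.98 on the other arrays of the group, which bears on its call at 1 month. Slc12a2 was low at 1.86, against 2.21 to 2.27, and Slc16a1 high at -1.83, against -2.19 to -2.14. The mutant 1-month replicate 4 also stood apart for 3 genes. Car2 was low there at 3.92, against 4.52 to 4.58, and Atp1b2 low at 6.15, against 6.37 to 6.38. Aqp1 was high at 4.20, against 4.05 to 4.07.

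The other 4 arrays stood apart for 1 gene each. Slc4a3 was low in the mutant 1-year replicate 2, at 2.26 against 2.46 to 2.49. Slc12a7 was low in the wild-type 1-year replicate 2, at -0.44 against -0.29 to -0.27, and Clic4 was high in the wild-type 1-year replicate 3, at 2.22 against 1.96 to 1.98. Kcnq5, which was dim, was high in the wild-type 1-month replicate 2, at -5.04 against -5.67 to -5.59.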

How the results depend on the processing

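Of 4167 values of members under the alternatives, 4058 stayed on their side of the threshold, and 157 of these were uncalled and changed sign. A call was lost in 78 and gained in 31, and 0 called ones reversed. At 1 month, 4 members were called between the genotypes; the count was 1 with normexp, 0 on slide 1 alone and 1 on slide 2 alone, 2 with the replicate number as a block (Slc16a8 and Atp1b4), 0 without the 3 arrays with the female pattern, 1 with that pattern as a covariate and 1 in the fit of the 2 groups alone. Leaving out 1 array gave 1 to 4: 1 without replicate 1 of either genotype at 1 month, and 2 without the mutant 1-month replicate 2 or 3, the wild-type 1-month replicate 2 or 3, the mutant 1-year replicate 2 or the wild-type 1-year replicate 1 or 3. At 1 year the count was 0 throughout, and for the difference between the effects 0 to 1 without 1 array. With age in mutants (1 called), it was 2 with quantile normalization or the mean of probes, which added Slc4a7, 2 in the fit of the 2 groups alone, 0 on slide 1, and 1 to 4 without 1 array: 4 without the mutant 1-month replicate 4, and 2 without the mutant 1-year replicate 1. With age in wild types (6 called), it was 0 on slide 1, 2 on slide 2 and 5 to 8 without 1 array. A slide alone holds 2 arrays a group. Over all genes the 1-month genotype count of 518 became 311 with the block, 133 without the 3 arrays, 244 with the covariate, 161 with 2 groups, 1 and 17 on the slides, and 227 to 931 without 1 array. The 1-year count of 163 became 96, 78, 118, 86, 10 and 12 under these, and 84 to 308 without 1 array. The count for the difference of 80 became 43 with the block, 12 without the 3 arrays, 1 and 0 on the slides, and 33 to 195. With age, 1274 in mutants became 275 without the 3 arrays, 840 with 2 groups, 37 and 162 on the slides, and 784 to 1924, and 2352 in wild types became 189 and 725 on the slides, and 1513 to 2789. The median change of the members (0.11) at 1 month was 0.06 to 0.20 without 1 array: 0.06 without replicate 1 of either genotype, and 0.17 to 0.20 without the mutant 1-month replicates 2 to 4 or the wild-type 1-month replicates 3 or 4; it was 0.21 with the female pattern as a covariate and 0.24 without its arrays. At 1 year (-0.03) it was -0.04 to 0.04 and changed sign without the mutant 1-year replicate 2 or the wild-type 1-year replicate 1. For the difference (-0.17) it was -0.26 without the mutant 1-month replicate 3 or without the 3 arrays and -0.10 with the mean of probes. With age in mutants (-0.07) it was -0.12 to -0.03 without 1 array, lowest without the mutant 1-month replicate 4 and nearest 0 without its replicate 3 or the mutant 1-year replicate 2, and in wild types (0.17) 0.07 to 0.22. The correlation of Slc16a8 with the RPE markers was -0.0675 on slide 2. Of 11 called results, 7 held whichever array was left out. These were Atp1b4 at 1 month, Slc16a3 with age in mutants, and the age calls in wild types other than Bsg. The filter on dim probes was not redone without an array, so the Atp1b4 test stays conditioned on the outcome and is no support. The genotype calls of Slc16a8, Bsg and Slc12a7 at 1 month did not hold. All mutant arrays of slide 2 lay in row 2 and all its wild-type arrays in row 1; with the row as a covariate the 4 genes called at 1 month remained called. Dim probes limit Atp1b4, Best1 and Kcnq5.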
